A study of Mus musculus with 28 samples.

Results

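Accessible chromatin at 35 genes that mark retinal blood vessels and astrocytes was examined in purified Müller cells, the principal glia of the retina. The genes were 21 endothelial genes, 9 genes of mural cells (the pericytes and smooth muscle cells that wrap the vessels) and 5 astrocyte genes, out of 21938 protein-coding genes of the GENCODE M21 annotation. They were listed by name, as genes known for these cell types. For each gene, accessible regions in the gene body or within 5 kb to each side were taken from the mouse genome build mm10.

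The cells came from retinae of control mice, which the labels call WT and the study's methods describe as wild type and db/+, and from db/db mice, which are mutant for Lepr, the gene of the leptin receptor, and develop diabetes. Mice of both genotypes were 6 months old. According to the study's methods, microglia (CD11b) and endothelial cells (CD31, encoded by Pecam1) were removed with magnetic beads. Müller cells were then collected with CD29 beads, and the CD29 fraction can hold a few astrocytes. The methods name no step that removed mural cells. ATAC-seq, in which a transposase cuts open chromatin, was analysed here as 1 list of accessible regions per genotype, attached to replicate 1 of each, so differences between the genotypes could not be set against replicate error or tested.

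The control list held 46189 merged regions and the db/db list 64883, and 4.16% and 31.3% of them, respectively, had no counterpart in the other list. Read depth was not analysed here, and the sources do not name the peak caller or its threshold, so genotype cannot be told apart from depth or calling in the length of a list. The signal of a region is a fold enrichment over background, and it was compared only by its percentile among the regions of its own list. The db/db list has more weak regions, which raises percentiles in it: the median region found in both lists at a coding gene stood 7.94 points higher in db/db. Ranks among the 43519 regions with a single counterpart in each list ("matched ranks") do not carry this shift (median change −0.0758 points) and are given beside the percentiles. Among comparison genes, the promoters of 10 of 10 Müller genes were open in both lists, against 2 of 10 microglial genes in both and 1 of 10 genes of other organs in both. Rod photoreceptor promoters were open for 8 of 10 genes in the control list and 3 of 10 in the db/db list; whether this difference in rod chromatin bears on the genes described here was not tested. Weak accessibility in Müller cells and strong accessibility in a few other cells cannot be told apart in lists of a whole cell fraction.

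Endothelial cells line the vessels and carry receptors for vascular endothelial growth factor (Kdr, Flt1) and angiopoietins (Tek), junction proteins (Cdh5, Cldn5, Esam) and transporters of the blood-retina barrier (Mfsd2a, Abcb1a, Slco1a4). Their identity depends on ETS and SOX transcription factors such as Erg, Fli1, Sox17 and Sox18. Mural cells are known for the receptor Pdgfrb, the KATP channel subunits Kcnj8 and Abcc9 and, in contractile cells, for Acta2, Tagln and Myh11, which serum response factor controls through the CArG box. Retinal astrocytes lie on the vessels of the nerve fibre layer and are known for Pdgfra and Pax2, whereas Aldh1l1 and S100b are also used by other glia. The study reports that Aldh1l1 rose in db/db mice specifically in Müller cells, in both RNA and protein, so this gene does not set astrocytes apart here.

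Sequences at the starts of 9 of these genes are printed here, for members with and without a promoter region. For Acta2 and Pdgfra the printed start lies outside the region counted. Each is the RefSeq promoter on GRCm38.p6, from 250 bases before to 50 bases after the transcription start site (TSS), for 3 members of each class. Among genes with a RefSeq sequence, these are the pair with the highest promoter percentile in the control list (for Acta2, which had no control region, in the db/db list) and a gene without a promoter region. Capitals mark matches, on either strand, to the ETS letters CCGGAA and GGAAGT, the CArG box, the TATA box TATAAA, the GATA letters AGATAA, the SP1 letters GGGCGG and the SOX letters ACAAAG. RefSeq sequences were matched for 24 of the 35 genes.
Tek: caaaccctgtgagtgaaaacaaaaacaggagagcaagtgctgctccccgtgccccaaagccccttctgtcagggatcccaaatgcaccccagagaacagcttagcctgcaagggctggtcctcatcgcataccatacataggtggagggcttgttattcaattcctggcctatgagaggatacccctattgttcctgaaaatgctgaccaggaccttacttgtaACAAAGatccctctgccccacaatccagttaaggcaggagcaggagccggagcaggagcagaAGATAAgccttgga
Flt1: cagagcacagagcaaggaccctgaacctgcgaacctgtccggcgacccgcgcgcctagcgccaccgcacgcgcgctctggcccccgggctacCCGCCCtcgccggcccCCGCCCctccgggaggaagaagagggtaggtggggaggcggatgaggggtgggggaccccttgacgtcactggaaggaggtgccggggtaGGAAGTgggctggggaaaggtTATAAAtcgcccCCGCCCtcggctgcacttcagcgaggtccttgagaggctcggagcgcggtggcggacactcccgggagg
Tie1: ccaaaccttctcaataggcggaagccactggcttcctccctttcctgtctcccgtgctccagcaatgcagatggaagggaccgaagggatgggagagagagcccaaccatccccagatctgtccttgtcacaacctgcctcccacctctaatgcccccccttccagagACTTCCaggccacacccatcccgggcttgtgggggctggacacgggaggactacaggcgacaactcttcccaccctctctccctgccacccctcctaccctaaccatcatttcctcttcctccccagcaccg
Kcnj8: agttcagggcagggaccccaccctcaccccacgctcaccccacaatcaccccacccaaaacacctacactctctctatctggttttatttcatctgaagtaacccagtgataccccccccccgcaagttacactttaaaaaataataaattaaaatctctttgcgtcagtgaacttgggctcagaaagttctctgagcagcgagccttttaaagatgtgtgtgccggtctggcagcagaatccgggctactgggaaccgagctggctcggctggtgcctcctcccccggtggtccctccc
Acta2: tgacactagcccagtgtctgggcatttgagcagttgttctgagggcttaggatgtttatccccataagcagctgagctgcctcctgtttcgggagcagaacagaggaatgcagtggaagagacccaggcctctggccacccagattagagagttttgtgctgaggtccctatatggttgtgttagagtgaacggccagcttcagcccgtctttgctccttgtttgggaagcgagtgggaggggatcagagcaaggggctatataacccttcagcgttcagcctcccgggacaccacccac
Rgs5: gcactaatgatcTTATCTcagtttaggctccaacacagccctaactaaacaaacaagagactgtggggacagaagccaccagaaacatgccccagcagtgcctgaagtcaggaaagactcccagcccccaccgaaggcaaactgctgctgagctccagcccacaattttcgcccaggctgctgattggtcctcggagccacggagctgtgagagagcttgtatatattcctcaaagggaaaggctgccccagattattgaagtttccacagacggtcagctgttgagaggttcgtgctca
Aldh1l1: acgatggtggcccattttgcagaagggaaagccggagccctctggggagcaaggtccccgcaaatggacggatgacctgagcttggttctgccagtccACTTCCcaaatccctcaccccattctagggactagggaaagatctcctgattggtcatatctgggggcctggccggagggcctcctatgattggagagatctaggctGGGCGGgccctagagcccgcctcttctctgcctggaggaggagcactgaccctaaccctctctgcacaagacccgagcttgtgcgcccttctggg
Pdgfra: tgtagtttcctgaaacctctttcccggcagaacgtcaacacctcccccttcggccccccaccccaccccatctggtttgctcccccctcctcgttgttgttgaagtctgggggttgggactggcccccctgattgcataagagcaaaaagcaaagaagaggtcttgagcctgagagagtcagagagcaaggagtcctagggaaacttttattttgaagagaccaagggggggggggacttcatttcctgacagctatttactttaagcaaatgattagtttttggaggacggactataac
Pax2: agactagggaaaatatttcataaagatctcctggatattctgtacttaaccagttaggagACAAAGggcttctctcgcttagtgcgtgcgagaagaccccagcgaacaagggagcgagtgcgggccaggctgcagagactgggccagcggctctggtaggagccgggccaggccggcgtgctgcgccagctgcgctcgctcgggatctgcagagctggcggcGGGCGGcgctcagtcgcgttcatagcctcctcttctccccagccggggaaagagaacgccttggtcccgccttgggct

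The Tek promoter (chr4:94739039-94739338, plus strand) held 1 GATA and 1 SOX match, and 290 of its 300 bases lay in the control region. The Flt1 promoter (chr5:147725962-147726261, minus strand), with 70.7% GC, a TATA box, 1 ETS match and 3 SP1 matches, lay in regions of both lists over all 300 bases. Tie1 (chr4:118489800-118490099, minus strand), Rgs5 (chr1:169655251-169655550, plus strand) and Pax2 (chr19:44755502-44755801, plus strand) had no promoter region in either list. The Kcnj8 promoter (chr6:142571565-142571864, minus strand) held no match, and 181 of its bases lay in the control region and 189 in the db/db region. The Aldh1l1 promoter (chr6:90550543-90550842, plus strand) lay in regions of both lists over all 300 bases. The sequences of Acta2 (chr19:34255324-34255623, minus strand) and Pdgfra (chr5:75152001-75152300, plus strand) shared 0 bases with a region in either list: the regions counted for these genes lay farther into the gene.

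The CArG box was searched only in its strict form, CC and GG around 6 letters that are each A or T, which 1.63% of all 32851 promoters of the table hold. None of the 6 mural promoters searched held it in this form, and Tagln and Myh11 were not searched. The printed Acta2 sequence holds ccctatatgg and ccttgtttgg, which each depart from this form by 1 letter and so were not marked. The ETS letters GGAAGT stood in 5 of 13 endothelial genes (Egfl7, Eng, Flt1, Kdr and Tie1). This was 35.3% of their promoters, against 23.8% of all and 25.2% of those of coding genes. These letters stood in 0 of 6 mural genes but in 3 of 5 astrocyte genes, in 42.9% of astrocyte promoters. The ETS letters CCGGAA went the other way: they stood in 1 of the 13 endothelial genes, Kdr, in 5.88% of the promoters against 14.9% of all. SOX letters stood in 23.5% of the endothelial promoters (Abcb1a, Egfl7, Eng and Tek) and 18.7% of all. The share was 28.6% for astrocyte promoters, from Pax2 alone, and 0% for mural ones. These matches describe letters in a window and no binding.

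A promoter was called open when a region overlapped the 1 kb to either side of the TSS of a basic protein-coding transcript. Endothelial promoters were mostly closed. In the control list 4 of 21 endothelial genes had an open promoter (19.0%, 95% Wilson interval 7.67 to 40.0%), and 7 of 21 in the db/db list (33.3%, 17.2 to 54.6%), against 57.9% and 60.9% of all coding genes. Mural promoters were open for 4 of 9 genes in control and 5 of 9 in db/db, and astrocyte promoters for 3 of 5 in both. Over all 35 genes, 11 promoters were open in control (31.4%, 18.6 to 48.0%) and 15 in db/db (42.9%, 28.0 to 59.1%). The intervals cover counting error only.

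**Figure D1:**
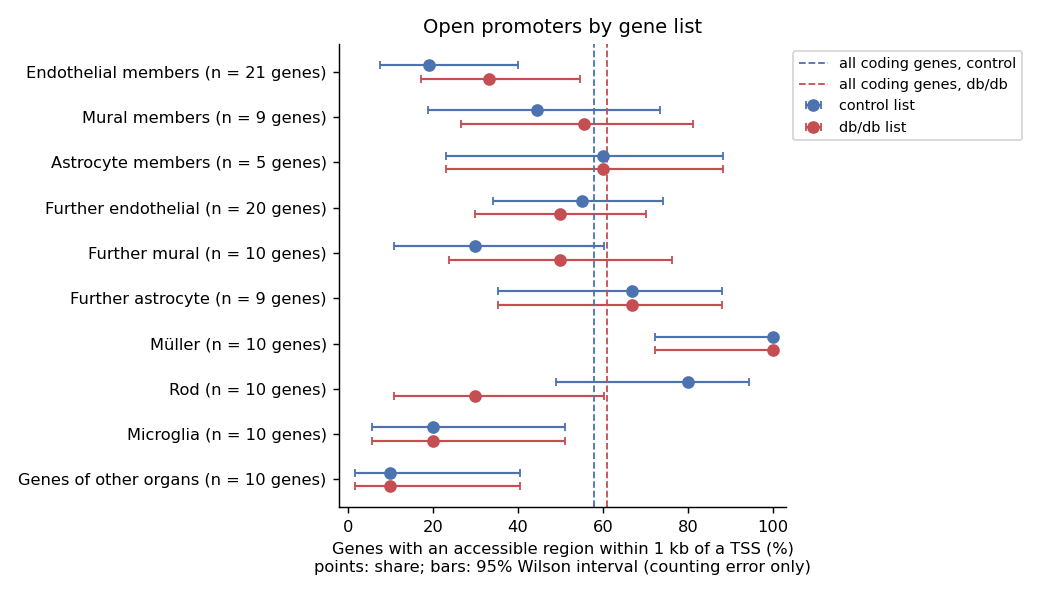
Share of genes (x axis, %) with an accessible region within 1 kb of a TSS, for each gene list (y axis) in the control list (blue) and the db/db list (red). Points are shares, bars are 95% Wilson intervals and dashed lines are all coding genes, 57.9% in control and 60.9% in db/db. The endothelial genes stand left of both lines, the 10 Müller genes at the right edge.

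All 11 promoters open in the control list were open in the db/db list too, as were 12614 of the 12703 open control promoters of all coding genes. In all, 736 of the 21938 coding genes had a promoter open in db/db alone. The 4 promoters listed in db/db alone were those of Erg, Egfl7, Abcb1a and Acta2. With both lists shortened to equal length by the highest −log10 p, endothelial open promoters numbered 4 in control and 4 in db/db. Of all coding genes, 57.9% and 57.8% had an open promoter in these lists. The 4 in db/db were then Kdr, Flt1, Mfsd2a and Egfl7, and those of Tek, Erg and Abcb1a were no longer listed.

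Most of the genes had regions. No region was found for 8 of 35 genes in control (22.9%) and 4 of 35 in db/db (11.4%), against 29.5% and 26.1% of all coding genes. The members were longer, with a median length of 40.3 kb against 17.4 kb, and so had more sequence in which a region could lie. Of the 16 endothelial genes with at least 1 control region, 25.0% had an open promoter, whereas 82.3% of other coding genes with equal numbers of regions had one. In db/db these shares were 36.8% and 83.8%. Mural genes with regions had an open promoter in 57.1% of cases in control, against 80.8% of coding genes with equal region numbers, and astrocyte genes in 75.0% against 85.9%.

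Base composition separated open from closed promoters in the genome at large. Of coding genes with a RefSeq promoter sequence, 90.5% of those with a CpG-rich promoter (at least 50% GC and an observed to expected CpG ratio of at least 0.6) were open in control, and 29.5% of those with a CpG-poor promoter. CpG-poor promoters made up 49.9% of coding genes but 70.8% of the 24 members searched, and 61.5% of the endothelial, 83.3% of the mural and 80.0% of the astrocyte genes. Of the 7 members with a CpG-rich promoter, 3 were open in control (Flt1, Kdr and Mfsd2a) and 5 in db/db, with Erg and Egfl7 added. Cspg4 and Pax2 were CpG-rich and closed in both. Of the 17 CpG-poor members, 5 were open in control (29.4%), which is close to the 29.5% of all CpG-poor coding genes, and 7 in db/db (41.2% against 32.8%). In control these were 1 of 8 endothelial genes (12.5%), 1 of 5 mural genes and 3 of 4 astrocyte genes (75.0%). The 3 open astrocyte genes, Pdgfra, Aldh1l1 and S100b, were all classed as CpG-poor. The class came from RefSeq sequences, whereas a gene was called open from a region near any basic TSS. For Pdgfra and Acta2 the classed sequence shared 0 bases with a region in either list, so the base composition at the region counted was not measured.

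The endothelial promoters open in both lists were those of 3 growth factor receptors, Tek, Kdr and Flt1, and of the transporter Mfsd2a. At Tek, the angiopoietin receptor, the region at the start (chr4:94738751-94739328 in control) had a signal of 8.30 in control and 6.98 in db/db. Its percentile was 30.3 and 34.6, and its matched rank 28.2 and 18.4, so it ranked lower in db/db once the length of the lists was set aside. It was the only region of Tek in either list. At Kdr, the main receptor for vascular endothelial growth factor, the promoter region (chr5:75978059-75978936) had a signal of 6.86 and 7.47, a percentile of 17.2 and 39.7 and a matched rank of 15.6 and 22.6. At Flt1, a second receptor for this factor, the region over the start (chr5:147725006-147726696) had a signal of 6.99 and 6.49, a percentile of 18.3 and 29.3 and a matched rank of 16.7 and 14.5. All 3 receptor promoters ranked far below the median coding gene with an open promoter, at percentiles of 77.9 in control and 80.5 in db/db.

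The promoter of Mfsd2a, a lipid transporter of the barrier (chr4:122960431-122961402), had a percentile of 8.51 and 19.7. The rank depended on the measure for several of these genes: by −log10 p in place of the signal, the Kdr promoter stood at a percentile of 69.3 and 82.8, the Flt1 promoter at 66.0 and 75.2 and the Tek promoter at 12.7 and 20.3. The medians over all promoter regions of coding genes were 80.6 and 81.6 by that measure.

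The endothelial promoters listed in db/db alone were weak. At Erg, an ETS factor of endothelial identity, the region (chr16:95585409-95586021) lay inside the gene with its summit 987 bp from the TSS and had a percentile of 19.3. At Egfl7, a secreted protein of endothelium, it lay at an internal start (chr2:26586484-26587333) with a percentile of 24.2, and the TSS of Gm20532 was nearer to the summit. At Abcb1a, which encodes the drug efflux pump P-glycoprotein, it covered a start (chr5:8659772-8660667) and had a percentile of 40.9.

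Other endothelial genes, among them Pecam1, Cdh5, Cldn5, Emcn, Tie1 and Sox17, had no open promoter in either list. Pecam1 had 3 control regions and 5 db/db regions, all within the gene and away from its start, with the strongest at a percentile of 37.6 in control and 44.7 in db/db. The single control region of Cdh5, which encodes VE-cadherin, lay downstream of the gene at a percentile of 60.1. Cldn5 and Emcn had no region in control and 1 and 2 in db/db, none above a percentile of 38.6. Tie1 and Sox17 had no region in either list. With every annotated transcript start counted, and not only starts of basic transcripts, Esam, Vwf and Notch4 also had an open promoter in both lists. This gave 7 of 21 endothelial genes in control and 10 of 21 in db/db, and 59.4% and 62.5% of all coding genes.

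By signal percentile, mural promoter regions had medians of 47.4 in control and 57.7 in db/db, against 17.7 and 29.3 for endothelial ones. By −log10 p the medians were 45.2 and 61.7 for mural and 42.5 and 32.2 for endothelial genes, so the control lists hardly differed by that measure. These medians rest on 4 mural and 4 endothelial regions in control and 5 and 7 in db/db. Kcnj8, the pore subunit of the vascular KATP channel, had its only region over the start (chr6:142570962-142571745), with a signal of 14.3 in control and 13.5 in db/db, percentiles of 73.8 and 79.9 and matched ranks of 72.4 and 70.6. Abcc9, its partner subunit next to it on the chromosome, had no promoter region in either list. It had 1 intronic region shared by both lists and 1 in db/db alone, at a percentile of 47.5. At Pdgfrb, the receptor that recruits pericytes, the region over the start (chr18:61044798-61045518) had percentiles of 23.4 and 36.0, and by −log10 p 67.3 and 76.7. Pdgfrb also had 4 control regions in introns, all at or below a percentile of 11.4, and 4 regions in db/db alone.

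The contractile genes differed among themselves. At Myh11, smooth muscle myosin, the promoter region (chr16:14291194-14291610) had percentiles of 46.3 and 48.1 and matched ranks of 44.1 and 30.7. The region counted for Tagln (chr9:45936823-45937271) lay upstream, with its summit 1054 bp from the TSS, at percentiles of 48.4 and 64.1. Acta2 had no control region. Its stronger db/db region (chr19:34254132-34254655), with a signal of 9.56 and a percentile of 57.7, had its summit 1316 bp inside the gene. With a window of 500 bp, Tagln and Acta2 were closed and 3 mural genes were open in both lists. At that window 56.9% of all coding genes were open in control and 59.7% in db/db. Rgs5, a gene often used to find pericytes, had no region in either list, and Des and Cspg4 had regions but no open promoter.

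The astrocyte genes fell into strong and weak. The promoter of Aldh1l1, a folate enzyme (chr6:90550037-90551096), had a signal of 18.9 in control and 18.4 in db/db, percentiles of 90.5 and 93.7 and matched ranks of 90.0 and 90.7. This was the strongest promoter of the 35 genes in both lists. It lies at the RefSeq start, well inside the gene as GENCODE annotates it. Pdgfra, the receptor that retinal astrocytes need to spread, had a region at an internal start (chr5:75155795-75157089) with percentiles of 81.5 and 82.6 and matched ranks of 80.5 and 74.5. S100b, a calcium-binding protein, had the weakest promoter region of the 35 genes in both lists (chr10:76253621-76254009), at percentiles of 4.25 and 17.7. Pax2, a transcription factor of astrocyte precursors, had 2 control regions away from its start and 1 in db/db, and Slc39a12, a zinc transporter, had none.

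**Figure D2:**
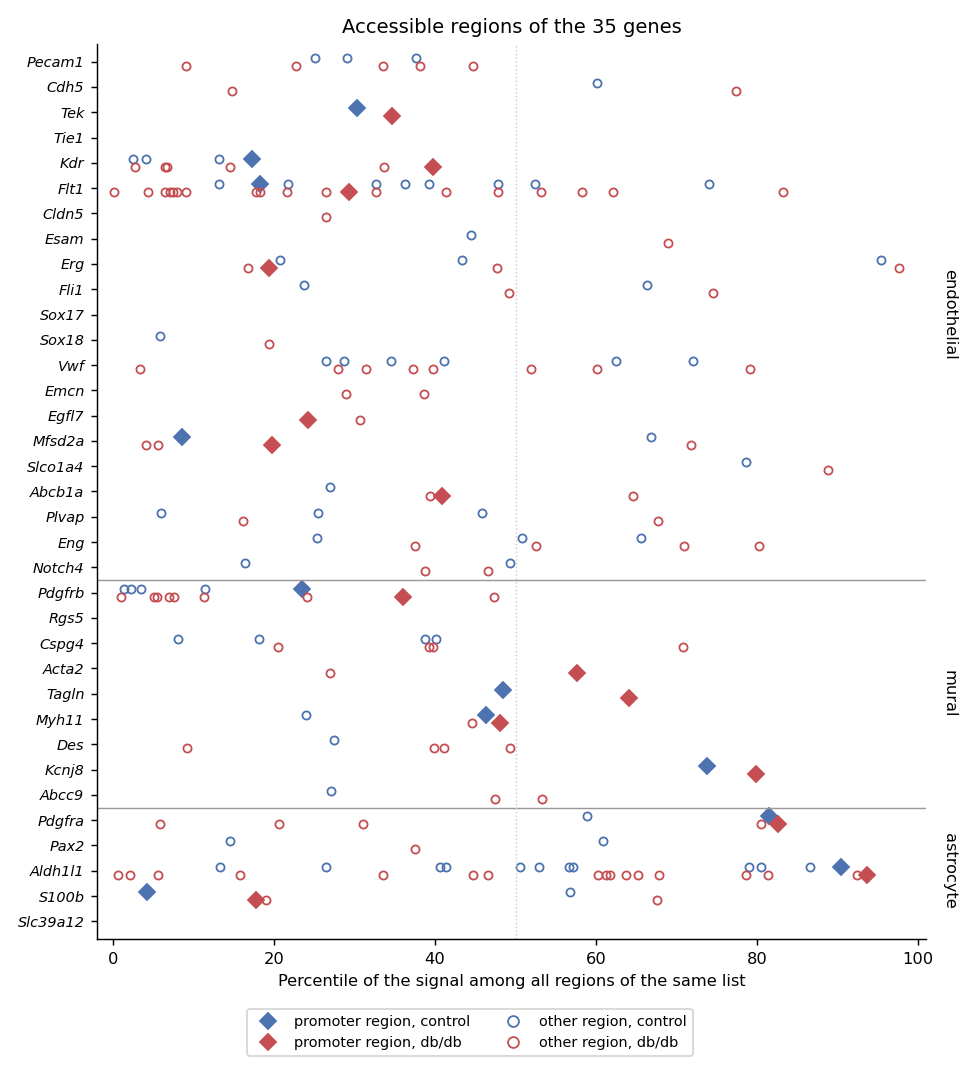
Signal percentile (x axis) of every region of the 35 genes (y axis, by class) within its own list, in control (blue) and db/db (red), with diamonds for promoter regions and circles for other regions; the dotted line is the median of a list. Promoter diamonds of endothelial genes lie between 8.51 and 40.9, that of Aldh1l1 at 90.5 and 93.7, and 4 genes have no region.

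Together the 35 genes had 76 control regions and 121 db/db regions. Regions of endothelial genes numbered 43 and 70, of mural genes 15 and 25 and of astrocyte genes 18 and 26. Most lay in introns, 52 of 76 in control and 86 of 121 in db/db. Flt1 had the most regions among endothelial genes, 9 in control and 19 in db/db, and Aldh1l1 the most among astrocyte genes, 12 and 17. All control regions of both genes were also in the db/db list.

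**Figure D3:**
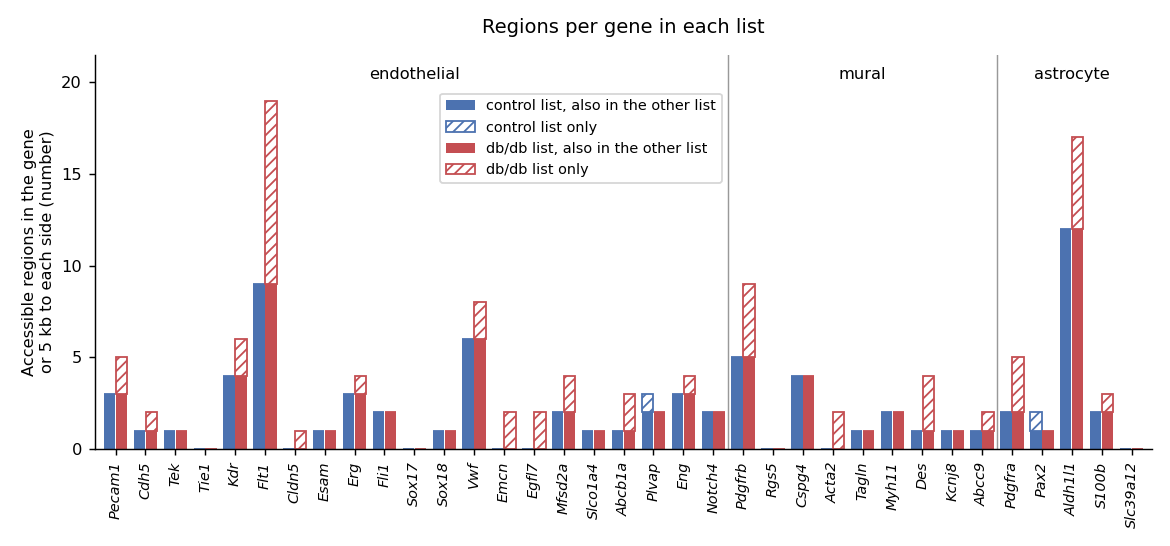
Number of accessible regions (y axis) in each gene or 5 kb to each side (x axis, by class) in the control list (blue) and the db/db list (red); filled parts were found in both lists and hatched parts in 1 list only. Flt1 has 9 and 19 regions, of which 10 are in db/db only, and control-only regions stand at Plvap and Pax2 alone.

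Of the 121 db/db regions, 47 had no control counterpart (38.8%, 30.6 to 47.7%), against 29.1% of db/db regions at all coding genes and 28.5% at other coding genes with equal region numbers. The shares were 28 of 70 for endothelial, 10 of 25 for mural and 9 of 26 for astrocyte genes. The interval of 30.6 to 47.7% treats regions as independent, but Flt1 alone gave 19 of the 121 regions and 10 of the 47. The members had few promoter regions, and in the genome promoter regions were seldom in db/db alone (9.71%), so the regions away from promoters were also compared. There the share was 40.6% for the members and 38.0% for all coding genes. With both lists at equal length, 18.3% of the members' db/db regions were in db/db alone, against 11.6% at all coding genes. Of the 76 control regions, 2 were in control alone (2.63%, 0.725 to 9.10%), against 3.91% at all coding genes.

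Of the regions found in db/db alone, 44 of 47 lay below the median signal of the list, as did 86.1% of all such regions in the genome. The other 3 were an intronic region of Abcb1a (chr5:8719602-8720210, percentile 64.6), the Acta2 region described above and an intronic region of Eng, a co-receptor for transforming growth factor beta (chr2:32653646-32654307, percentile 52.6). All 10 of these regions at Flt1 were in the gene body, with percentiles from 0.134 to 26.4. In the control list alone stood an intronic region of Pax2 (chr19:44825220-44825698, percentile 60.9) and an exonic region of Plvap, a protein of fenestrated endothelium (chr8:71507590-71508109, percentile 25.4).

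**Figure D4:**
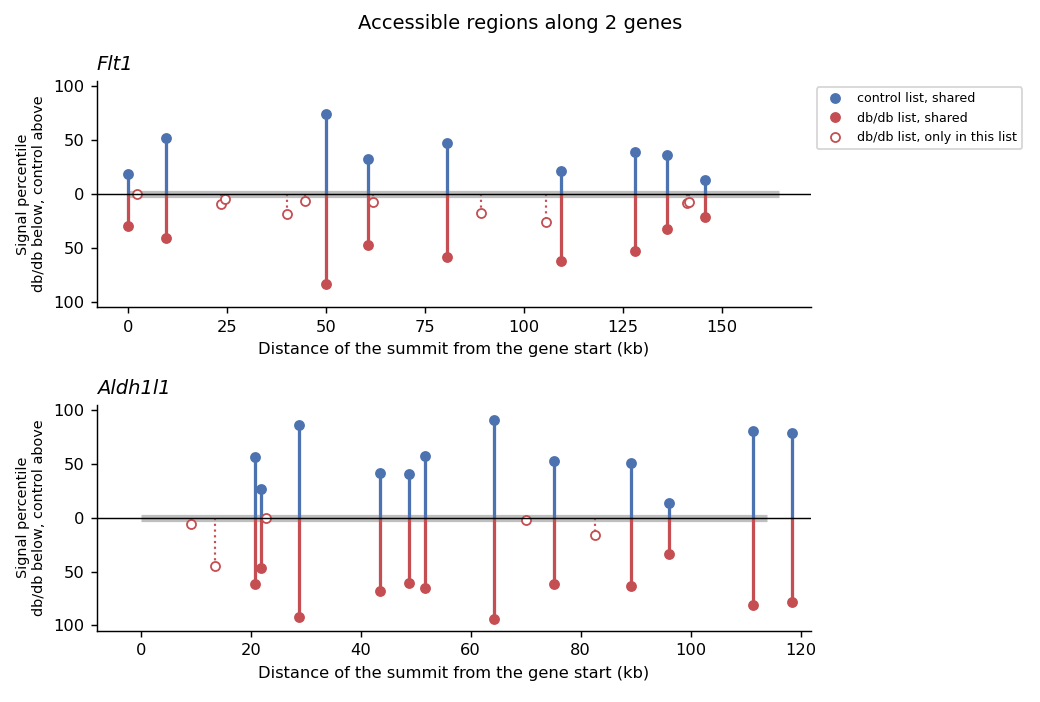
Accessible regions along Flt1 and Aldh1l1 by distance of the summit from the gene start in kb (x axis), with the signal percentile drawn upwards for the control list (blue) and downwards for the db/db list (red); the grey bar is the gene and open circles are regions in db/db alone. In Flt1 these open circles reach a percentile of 26.4 at most, below the shared region 49953 bp from the start, which has 74.0 and 83.2.

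Away from promoters, the regions of the 35 genes had a median percentile of 37.6 in control and 37.5 in db/db, against 39.0 and 40.7 for regions outside promoters at all coding genes. By class the medians were 36.3 and 33.6 for endothelial, 18.1 and 33.1 for mural and 56.7 and 46.6 for astrocyte genes. Regions of the same gene are not independent, and single genes weigh heavily in these medians. Aldh1l1 alone gave 12 of the 18 astrocyte regions in control and 17 of the 26 in db/db, its promoter included. With promoters included, the medians were 37.0 and 37.5, against 50.1 and 50.0. The strongest region of all 35 genes was an Erg intron (chr16:95401832-95402492), 57123 bp from the nearest Erg TSS, with percentiles of 95.4 and 97.7. The next strongest endothelial regions in control were in Slco1a4, an organic anion transporter (chr6:141847925-141848504, 78.7 and 88.8), and in Flt1 (chr5:147675475-147676747, 74.0 and 83.2).

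A total of 74 member regions had a single counterpart in each list. In db/db 35 of them had a higher matched rank and 39 a lower one (47.3% higher), against 49.3% higher among 30951 such regions at all coding genes. The median change was −0.125 points with an SD of 9.63 points across regions, and the SD was 10.3 points over all coding genes. By class, 17 of 42 endothelial, 8 of 15 mural and 10 of 17 astrocyte regions ranked higher in db/db. The share over all 35 genes was close to the background. Of the 74 regions, 53 had a matched rank below 50 in control, and 52.8% of these ranked higher in db/db. For such regions at all coding genes the share was 57.1%. By class these were 13 of 32 endothelial, 8 of 14 mural and 7 of 7 astrocyte regions, and the difference was not tested. Most of the 7 astrocyte regions lay at Aldh1l1 and the others at Pax2 and S100b, with rises from 0.273 to 14.7 points.

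**Figure D5:**
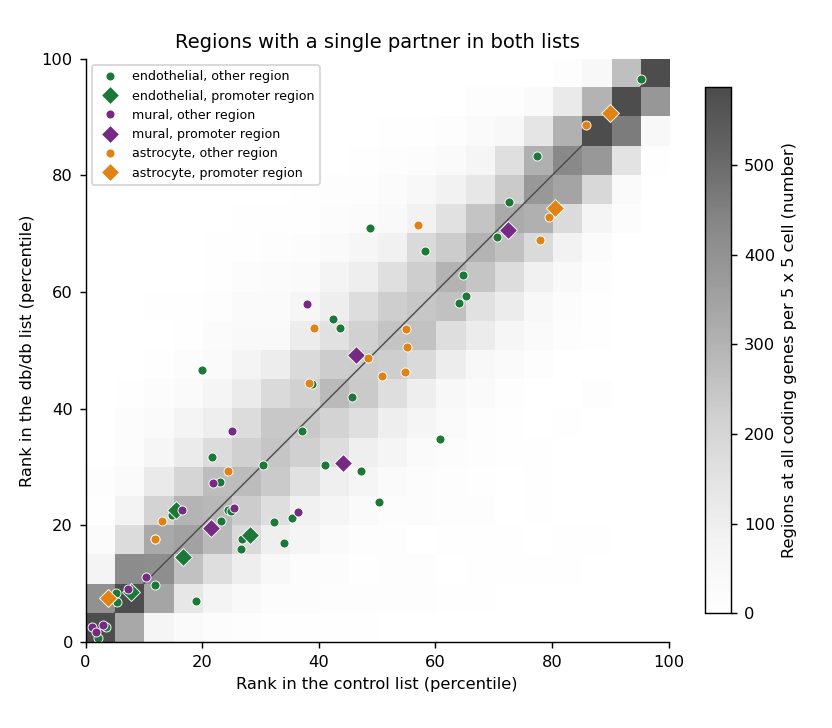
Matched rank in the control list (x axis, percentile) against that in the db/db list (y axis, percentile) for the 74 member regions with a single counterpart, coloured by class, with diamonds for promoters; grey cells count the 30951 regions at all coding genes and the line marks equal rank. Points lie on both sides of the line, 35 above and 39 below.

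The 5 largest increases of percentile lay in introns, and the 5 largest decreases included an exonic region of Notch4 and a region downstream of Vwf. A Flt1 region 109282 bp from the start (chr5:147616546-147616912) had a matched rank of 19.9 in control and 46.7 in db/db. A Cspg4 region (chr9:56880766-56881286), in the gene of the pericyte proteoglycan NG2, had 37.9 and 58.0, and an Eng region (chr2:32667632-32668650) had 48.7 and 71.0. An Aldh1l1 region (chr6:90529494-90530217) had 39.2 and 53.9, and an Abcc9 region (chr6:142647257-142648019) had 25.1 and 36.2. In the other direction, a Flt1 region 9515 bp from the start (chr5:147716255-147717110) had 50.4 in control and 24.0 in db/db. Flt1 thus held both the largest increase and the largest decrease, in different introns or parts of introns. A second Flt1 region (chr5:147589675-147590355) had 34.1 and 17.0, an Erg region (chr16:95521129-95521528) 18.9 and 7.09 and the exonic Notch4 region (chr17:34586751-34587884) 47.2 and 29.3. These are the extremes by percentile within each list, among 74 regions in 2 lists without replicates. By matched rank the order differed. A Pdgfra intron region, with 57.1 in control and 71.5 in db/db, rose more than the Abcc9 region. A Pecam1 intron region, with 35.4 and 21.2, fell more than the Erg region.

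Some regions near these genes belong as much to a neighbour. A region downstream of Vwf (chr6:125690048-125690808), with matched ranks of 60.8 and 34.8, lay 213 bp from the TSS of Ano2. A region downstream of Notch4 lay 181 bp from the TSS of Pbx2, and a region downstream of Aldh1l1 lay 187 bp from the TSS of Slc41a3. The member's own TSS was the nearest coding TSS for 60 of 76 control regions and 96 of 121 db/db regions, and with these alone the db/db-only share was 39.6%.

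Other genes of the same cell types were counted in the same way. Among 20 further endothelial genes, 11 promoters were open in control (55.0%) and 10 in db/db (50.0%), against 19.0% and 33.3% of the endothelial genes above; this difference was not tested. These included Ets1, an ETS factor that other cells use too, with promoter percentiles of 92.3 and 96.6, and Slc2a1, the glucose transporter of the barrier, with 48.7 and 77.9. Ocln, a junction protein, had a promoter region in control only. Clec14a had no region in either list, and Robo4 and Tal1 had 1 each in db/db and none in control. Among 10 further mural genes, 3 promoters were open in control (30.0%) and 5 in db/db (50.0%), lower shares than the 44.4% and 55.6% of the mural genes above, with Mcam and Notch3 added at percentiles of 11.6 and 22.6. Among 9 further astrocyte genes, 6 were open in both lists. Agt and Aldoc were among them, Gfap had regions but no open promoter, and the connexin genes Gja1 and Gjb6 had no region in either list.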

How the data were processed

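ATAC-seq of Müller cells was analysed from the peak lists of replicate 1 of each genotype; the lists of replicate 2 and the RNA-seq samples were not analysed here. Each deposited row gives a peak with the authors' score and a signal, a ratio over background called fold enrichment. It also holds the authors' −log10 p-value and −log10 q-value. The submitters' processing notes name the build mm10; the peak caller, its threshold and any pooling of replicates are not given in the sources used here. The study's own differential test needs reads and was not run.

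Overlapping rows were merged to 1 region that kept the values of its strongest row (Python 3.11.15, pandas 2.3.3, numpy 2.4.6, scipy 1.17.1, matplotlib 3.10.9). Regions were shared from 1 bp of overlap. Genes and TSS were taken from GENCODE M21. A gene took regions within 5 kb, and an open promoter needed a region within 1 kb of a TSS. Genes with equal region numbers were all other coding genes with that number. Shares have 95% Wilson intervals. Motifs were searched in RefSeq promoters. The steps were tested on simulated lists.

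The regions named in full are each promoter region, each region of 1 list only at or above the median signal, and the 5 largest rises and 5 largest falls of percentile; some further regions were named after their values were seen. The genes and gene lists were chosen with earlier results of these data known.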

Additional observations from a re-analysis of the deposited data

How the results depend on the processing

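In all, 18 values were recomputed under 13 alternatives, which gave 102 values. Of these, 89 stayed within 1.5 times the count reported or within the 95% interval, and 13 did not. Counting the TSS of every annotated transcript gave 7 open endothelial promoters in the control list, where 59.4% of all coding genes were then open. Open mural promoters in the db/db list numbered 3 with a window of 500 bp (59.7% of all coding genes open). They also numbered 3 with the summit within 1 kb of the TSS (59.9%) and 3 with a region that covers the TSS (57.8%). The last alternative was chosen after seeing the data. With lists of the same number of regions, 4 endothelial promoters were open in the db/db list, the control-only share became 11.8% (12.1% at all coding genes), and the db/db-only share became 18.3% for all 35 genes (11.6% at all coding genes), 17.4% for endothelial and 6.67% for astrocyte genes, since the weakest db/db regions are then left out. The median percentile of db/db regions was 41.1 by −log10 p and 29.8 among regions found in both lists. The median change of percentile of regions with a single counterpart was 10.6 within the whole lists, 14.1 by −log10 p and −0.125 among regions found in both lists, where the different lengths of the lists no longer enter. No paired analysis was possible because each genotype has 1 list here and nothing was tested. Depth is unknown, so a region missing from a list was not detected there and need not be closed.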
